A study of Mus musculus with 18 samples.

Results

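The 92 genes described here are the nuclear genes of oxidative phosphorylation that were measured in mouse small intestinal organoids. A gene was taken when its symbol began with 1 of 16 prefixes that name subunits or assembly factors of the respiratory complexes and the ATP synthase, when it was protein-coding, and when at least 9 of the 18 samples held at least 10 reads of it. Of the 55487 gene identifiers in the count table, 111 carried such a symbol, 98 of these were protein-coding, and 92 passed the minimum. They comprised 36 genes of complex I, 8 assembly factors of complex I, 4 genes of complex II, 4 assembly factors of complex II, 8 genes of complex III, 15 genes of complex IV and 17 genes of complex V. All 92 were among the 15247 genes tested.

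The organoids were grown from small intestinal crypts of female wild-type (WT) C57BL/6 mice and passaged before treatment. The mice bought for the study were young adults, with no separate age given for the organoid donors. Each agonist was given at 1 μM for 4 days. Norepinephrine, which stimulates alpha and beta adrenergic receptors, was compared with its HCl vehicle (5 against 4 samples), and UK14304, an agonist of alpha-2 receptors, with its DMSO vehicle (5 against 4 samples). The number after the letter m in the sample names was taken as the mouse. Vehicle samples of mouse 5 were not analysed here, so 4 mice had both an agonist and its vehicle. An organoid is epithelium without nerves, muscle or vessels, so these cultures are a model of the epithelial part of the response alone.

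Oxidative phosphorylation is the step at which mitochondria make most of the ATP of a resting cell. Complexes I and II take electrons from NADH and succinate, complexes III and IV pass them on to oxygen, and complexes I, III and IV pump protons whose return flow drives the ATP synthase, complex V. Most subunits are encoded in the nucleus and imported, and a small core is encoded by mitochondrial DNA. In the intestinal crypt, mitochondrial activity is known to differ between stem cells, Paneth cells and the absorptive cells of the villus.

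Library totals ranged from 21.87 to 27.85 M counted reads (M, mega), and the members took 1.451% to 1.647% of them. The share of ribosomal RNA, read from a single annotated gene rather than from all ribosomal RNA, was uneven between groups. It was 2.41%, 2.61%, 3.06% and 0.351% in DMSO mice 1 to 4 and 1.97%, 0.529%, 0.619%, 0.34% and 0.513% in UK14304 mice 1 to 5. In HCl it was 0.414%, 0.346%, 0.377% and 2.02%, and with norepinephrine 0.37%, 0.464%, 0.313%, 1.98% and 1.83%. A term for this share was used in 1 alternative only. The 37 identifiers on the mitochondrial chromosome held 0 counts in all samples, so the mitochondrially encoded subunits could not be set beside the nuclear ones. Markers of epithelium summed to between 3036 and 3269 CPM (reads of a gene per M counted reads, with M as above, after TMM scaling of the library size) in every sample, fibroblast markers to 6.55 to 9.78 CPM, nearly all of it Vim, and immune markers to 2.3 to 3.7 CPM. Endothelial, neuronal and muscle markers were each below 1 CPM in sum. In bulk RNA, fewer cells of a type and less RNA per cell cannot be told apart.

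Promoters of this family are known for binding sites of the nuclear respiratory factors, Nrf1 and the Ets-family factor Gabpa, and 4 are shown here as examples of these sites. RefSeq promoter windows (GRCm38.p6, 250 bases before to 50 after the start) were found for 76 of the 92 members, in 81 windows. The palindrome CGCATGCG, the core of the Nrf1 site, occurred in 11 windows, or 13.6%, against 1.9% of all 32851 windows. The Ets core CCGGAAG, read as CTTCCGG on the other strand, occurred in 21 windows, or 25.9%, against 8.9% of all windows. Promoters rich in G and C hold both motifs more often, and among all windows within the interquartile range of member GC content the shares were 3.2% and 14.1%. Matches of the 2 motifs cannot overlap in letters, 5 windows held both, and 49 of the 76 members held neither. By class, CGCATGCG was in 2 of 34 complex I windows and 4 of 16 complex V windows, and CCGGAAG in 4 and 5 of them. A match of letters is a description and not evidence of binding. The 150 bases before the annotated start are printed 5′ to 3′ on the strand of the gene, with the motif in capitals. They lie at chr4:24897933-24898082 (plus strand) for Ndufaf4, chr9:50603850-50603999 (minus strand) for Sdhd, chr4:116075071-116075220 (minus strand) for Uqcrh and chr5:115348959-115349108 (minus strand) for Cox6a1.
Ndufaf4: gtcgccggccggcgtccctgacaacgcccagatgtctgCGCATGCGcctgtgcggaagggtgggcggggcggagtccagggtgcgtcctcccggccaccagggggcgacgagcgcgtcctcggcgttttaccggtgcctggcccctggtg
Sdhd: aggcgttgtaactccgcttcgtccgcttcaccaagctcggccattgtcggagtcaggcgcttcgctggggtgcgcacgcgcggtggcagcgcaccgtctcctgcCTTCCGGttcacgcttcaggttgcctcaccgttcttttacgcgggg
Uqcrh: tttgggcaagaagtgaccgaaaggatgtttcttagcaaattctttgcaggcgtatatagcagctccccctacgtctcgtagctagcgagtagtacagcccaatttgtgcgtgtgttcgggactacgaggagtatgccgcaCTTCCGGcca
Cox6a1: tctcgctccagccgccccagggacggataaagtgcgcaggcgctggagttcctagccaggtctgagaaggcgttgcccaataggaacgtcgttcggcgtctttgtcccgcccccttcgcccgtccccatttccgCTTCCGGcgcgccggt

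The Ndufaf4 window holds the Nrf1 core and the other 3 hold the Ets core on the opposite strand. Cox6a1 also holds the Nrf1 core further upstream, 161 bases before its start. Ndufaf4 was the assembly factor with the lowest unadjusted p under either agonist, Sdhd had the highest level of complex II per length of merged exons, and Uqcrh and Cox6a1 were among the highest of complexes III and IV on that scale.

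Levels of different genes were compared as RPKM, the CPM divided by the length of the merged exons in kilobases, as mean ± SD over all 18 samples. Complex V held the highest level, with Atp5a1, the catalytic core's alpha subunit, at 634 ± 19.6 RPKM, and Atp5b, its beta subunit, at 563 ± 26.2 RPKM. The central stalk subunit Atp5c1 stood at 226 ± 6.83 RPKM. In complex IV, Cox6b1 reached 431 ± 22.6 RPKM, Cox4i1, which takes part in its regulation by ATP, 356 ± 22.7 RPKM, and Cox6a1 331 ± 34.1 RPKM. In complex II, the membrane anchor Sdhd stood at 231 ± 8.32 RPKM and the flavoprotein Sdha at 192 ± 10.3 RPKM, which bind the enzyme to the membrane and oxidise succinate. In complex III, Uqcr10 stood at 217 ± 13.8 RPKM, Uqcrh at 206 ± 9.74 RPKM and Uqcrfs1, the Rieske iron-sulphur protein, at 188 ± 10.9 RPKM. These 3 levels lie within about their summed SDs of the neighbouring gene. In complex I, the accessory subunit Ndufa8 stood at 129 ± 7.47 RPKM and Ndufa1 at 100.03 ± 7.04 RPKM. The order within a complex depended on the length used. Per kilobase of the main mRNA, Atp5b stood above Atp5a1 (1244 against 805 CPM), Cox4i1 above Cox6b1 (742 against 494 CPM), Uqcrh above Uqcr10 (466 against 292 CPM) and Sdha above Sdhd (273 against 231 CPM). In complex I, Ndufa6 (265 CPM) and Ndufb10 (150 CPM) were on that scale above both Ndufa8 (129 CPM) and Ndufa1 (100.03 CPM). The 12 assembly factors, which build the complexes without being part of them, lay between 1.69 and 19.1 RPKM, with Ndufaf1 the highest.

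**Figure D1:**
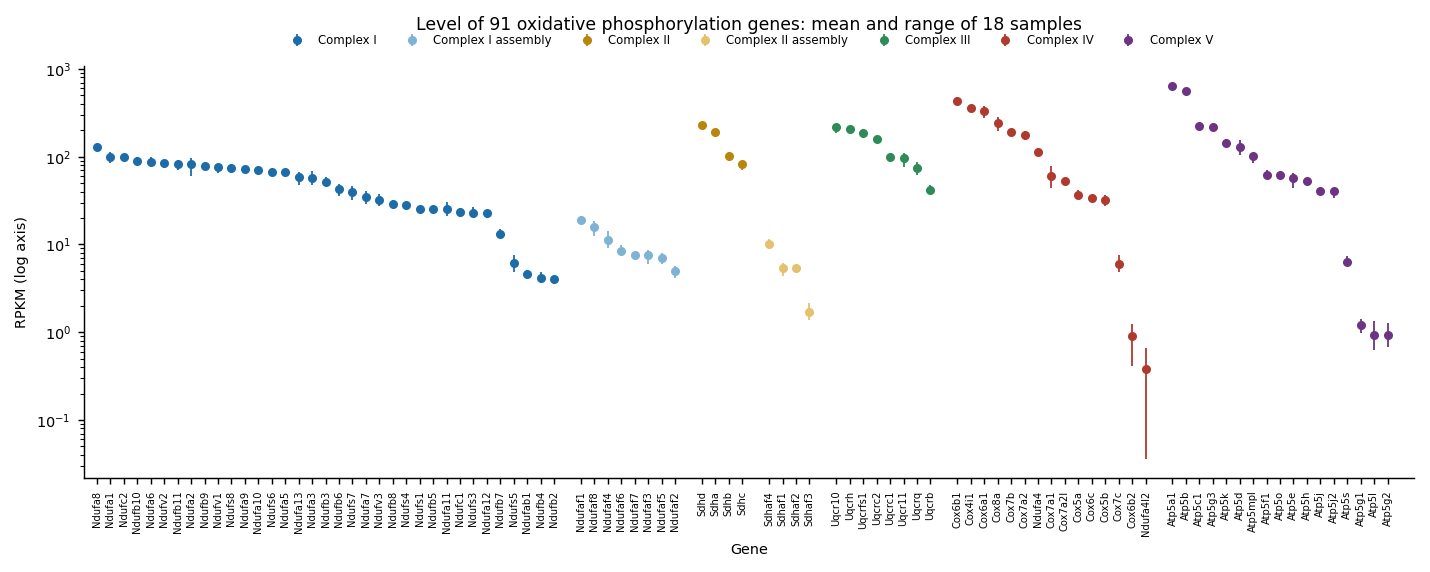
Level of 91 of the 92 genes in RPKM on a log axis, grouped by complex. Points are means and bars the range over 18 samples, and the 12 assembly factors sit between 1.69 and 19.1 RPKM, below most subunits.

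Several subunits exist as tissue isoforms, and these cultures expressed them unequally. Among the isoforms known from heart and skeletal muscle, Cox7a1 was measured at 60.3 ± 10.2 RPKM beside 175 RPKM for the ubiquitous Cox7a2, whereas Cox6a2 had at most 7 reads in a sample and Cox8b 5 reads in all 18 samples. Cox4i2, the lung isoform, had 5 reads in all and the testis isoforms Cox7b2 and Cox8c had 0. Cox6b2 stood at 0.898 RPKM. Ndufa4, counted here with complex IV, stood at 114 RPKM and its paralogue Ndufa4l2, known as a target of hypoxia signalling, at 0.382 RPKM with 1 to 18 reads a sample. Cox7a1 was the abundant member that varied most between mice. Mouse 2 gave the lowest Cox7a1 level of each group, at 27.3 CPM in HCl, 24.3 CPM in norepinephrine, 26.4 CPM in DMSO and 23.7 CPM in UK14304. The highest of the HCl samples was mouse 1 at 41.6 CPM.

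Some low levels went with sequence that is shared with other genes. Reads that map to several places were not counted, so a gene with close copies loses reads. For each member the share of 50-base stretches of its main mRNA that also occur in another gene of the GENCODE annotation was computed. The share was 100% for Atp5g2, 84.85% for Atp5l, 66% for Atp5g1 and 52.95% for Cox7c, and pseudogenes alone covered all of that share in Atp5g2, Atp5g1 and Cox7c and 68.48% of the stretches of Atp5l. It was 66.59% for Atp5h and 50.32% for Atp5o, which were not low, at 52.5 and 61.3 RPKM, and 0% for Atp5g3, Cox8a and Cox6b1. Atp5g1, Atp5g2 and Atp5g3 encode the same mature c subunit of the ATP synthase ring, and they were measured at 1.21, 0.921 and 220 RPKM. The 61 members with under 10% shared stretches had a median of 73.67 RPKM, the 24 with 10% to under 50% a median of 39.13 RPKM, and the 7 with 50% or more a median of 5.39 RPKM. The share also counts genes that overlap a member at its own place in the genome, so it is not a measure of close copies alone. The groups by share include the assembly factors, and the median of the last group is the level of 1 of them, Sdhaf1. At 5.39 RPKM, Sdhaf1 shared 68.99% with 1 other gene and 0% with pseudogenes. In Atp5o pseudogenes covered 19.14% of the stretches. Over the 80 subunit genes, which share 18 libraries, Spearman's rho between the share and the level was -0.442, given as a description. Merged exon length added to it for Atp5l, whose merged exons span 6443 bases against 544 of the main mRNA. Scaled to the main mRNA, Atp5l stood at 11.1, Atp5g1 at 9.98, Atp5g2 at 3.50 and Atp5g3 at 671 CPM per kilobase. The levels of Atp5g1, Atp5g2, Atp5l and Cox7c are therefore uncertain here. Cox6b2 and Ndufa4l2 were low with 0% shared stretches.

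**Figure D2:**
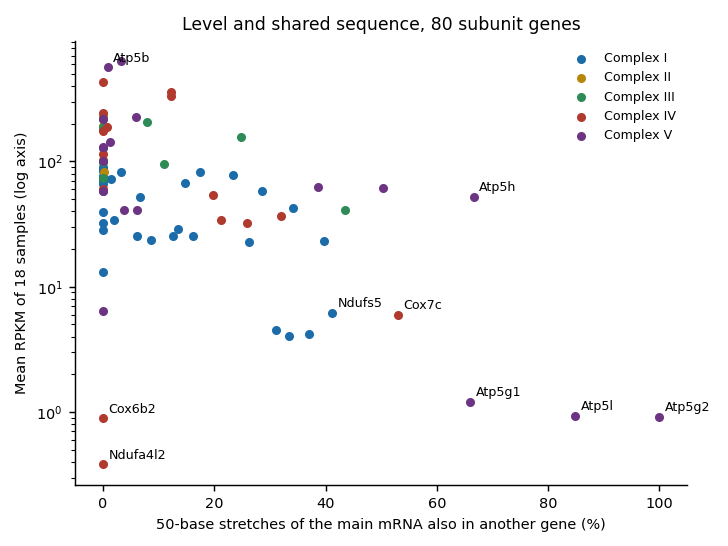
Mean RPKM over 18 samples (log axis) against the percentage of 50-base stretches of the main mRNA found in another gene, for the 80 subunit genes. Atp5g2, Atp5l and Atp5g1 lie at the lower right with 100%, 84.85% and 66% shared.

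None of the 92 genes passed an adjusted p of 0.05 against the matching vehicle under either agonist (edgeR's quasi-likelihood test, Benjamini-Hochberg over all genes tested). Norepinephrine called 0 members, against 0% of all genes, and UK14304 called 0 members, against 0.0394% of all genes. DESeq2 also called 0 members under both. At an unadjusted p under 0.05, norepinephrine gave 5 members, or 5.43% of the members against 6.18% of all genes, 3 of them lower (3.74% of all genes were lower at that p). UK14304 gave 15 members, or 16.3% against 11.2% of all genes, and 13 of them were lower, or 14.1% against 6.03% of all genes. With the mouse as a block, the count remained 0 under norepinephrine (0.105% of all genes called) and 0 under UK14304 (1.22% of all genes called). The lowest adjusted p of a member in the blocked edgeR comparison was 0.0883, for Ndufa6 under UK14304.

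The estimates were small and leaned to lower values. Under norepinephrine 71 of the 92 members had a log2 fold change below 0, or 77.2% against 52.4% of all genes, and their median was -0.05 against -0.0077 for all genes. Under UK14304 76 members were below 0, or 82.6% against 51.3% of all genes, with a median of -0.07 against -0.0041 for all genes. With a trend on merged exon length removed, the median log2 fold change of members, norepinephrine against HCl vehicle, was -0.019 with 58 members below 0. The median log2 fold change of members, UK14304 against DMSO vehicle, was then -0.023 with 59 below 0. Counted by mouse, 9 members (9.78%) were lower in 4 of 4 mice under norepinephrine, against 8.28% of all genes, and 2 were higher in 4 of 4, against 5.32% of all genes. Under UK14304 26 members (28.3%) were lower in 4 of 4 mice, against 15.5% of all genes, and 6 were higher in 4 of 4, against 14% of all genes. The edgeR 95% confidence interval of the log2 fold change lay within ±0.5 for 88 members under norepinephrine and 87 under UK14304, and within ±0.25 for 62 and 60. Changes beyond the wider bound were thus outside the intervals of most members, and smaller ones lay inside many of them. The exceptions to the wider bound were Cox7a1, Cox6b2, Ndufa4l2 and Atp5l under both agonists and Ndufs5 under UK14304.

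By complex, the median log2 fold change under norepinephrine and UK14304 was -0.06 and -0.08 for complex I (29 and 34 of 36 genes below 0), and -0.04 and -0.05 for complex II. It was -0.05 and -0.08 for complex III (7 and 8 of 8), -0.09 and -0.12 for complex IV (12 and 13 of 15), and -0.03 and -0.06 for complex V (11 and 13 of 17). The 12 assembly factors had medians of -0.03 and 0.02. No class held a gene past the threshold. With the mouse as a block, the medians of complex IV were -0.077 and -0.078. Those of complex III were then -0.047 and -0.075, and those of complex I -0.046 and -0.069.

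**Figure D3:**
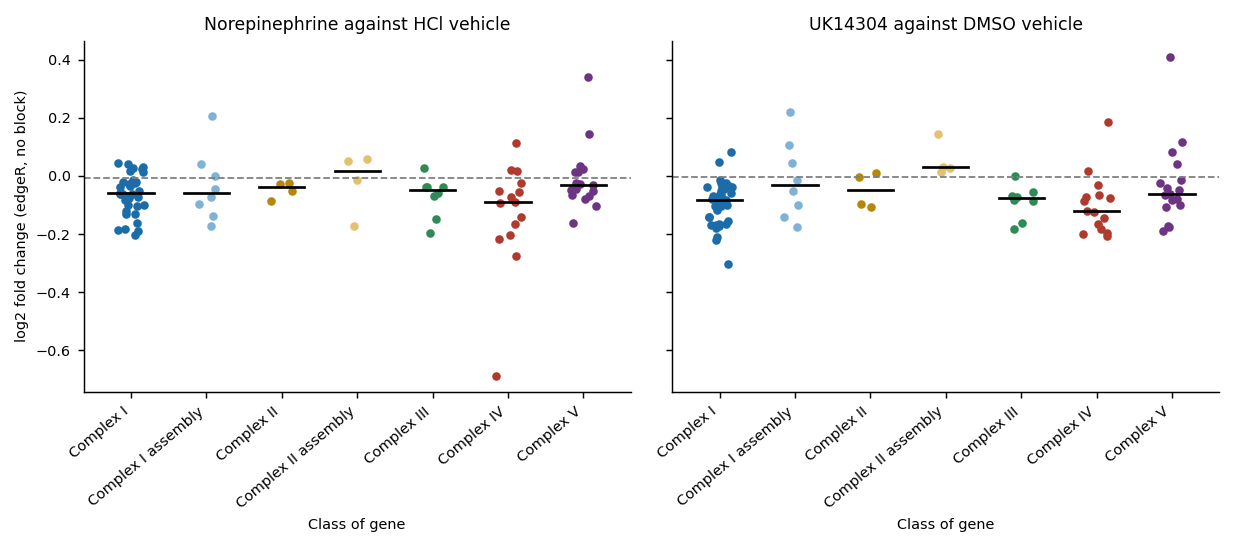
log2 fold change of each member against its own vehicle, by class, with norepinephrine on the left and UK14304 on the right. Black bars are class medians and the dashed line the median of all genes tested. In this fit without the block complex IV has the lowest class medians, -0.09 and -0.12, and the lone point at -0.69 is Ndufa4l2.

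Summed over the 92 members, the HCl vehicle samples held 15895 ± 621 CPM (SD, n = 4) and the norepinephrine samples 15335 ± 642 CPM (SD, n = 5). The DMSO vehicle samples held 15899 ± 785 CPM (n = 4) and the UK14304 samples 15221 ± 600.4 CPM (n = 5). The groups overlapped in both comparisons. Mouse 3 had the lowest sum of the HCl, DMSO and norepinephrine samples, at 15054, 14723 and 14608 CPM, and mouse 4 the lowest of the UK14304 samples, at 14583 CPM. Norepinephrine-treated mouse 4 had the highest sum of its group, at 16344 CPM.

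Among complex I genes, Ndufa13, an accessory subunit also known as GRIM-19 (chr8:69894180-69902558, minus strand, GRCm38), had the lowest unadjusted p under norepinephrine. It measured 79.7, 78.1, 73.9 and 79.2 CPM in the HCl samples of mice 1 to 4, and 67.1, 68.2, 65.7, 81.3 and 60.0 CPM with norepinephrine in mice 1 to 5. All norepinephrine samples but that of mouse 4 lay below every vehicle sample. The estimate on the log2 scale was -0.18 ± 0.07 (SE, edgeR adjusted p = 0.713). Under UK14304 it measured 76.1, 69.8, 70.0, 61.4 and 68.7 CPM against 82.9, 84.3, 74.4 and 78.8 CPM in DMSO, with overlap between UK14304-treated mouse 1 and DMSO mouse 3 only. That log2 fold change was -0.21 ± 0.07 (SE, edgeR adjusted p = 0.364). When only the UK14304 and DMSO samples were fitted with the mouse as a block, Ndufa13 was the 1 member called, lower at an edgeR adjusted p of 0.0408, against 3.55% of all genes. Over 18 samples with group means removed, the members most like Ndufa13 were Atp5d (r = 0.961), Uqcrq (r = 0.96) and Ndufs7 (r = 0.953). Its exons overlap those of Tssk6 over 30% of their length and counting ignored strand, so part of its reads cannot be assigned with certainty.

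Ndufa3, another accessory subunit (chr7:3617373-3620327, plus strand), had the lowest unadjusted p under UK14304. The DMSO samples of mice 1 to 4 measured 68.5, 69.8, 57.2 and 63.9 CPM and the UK14304 samples of mice 1 to 5 measured 60.8, 54.1, 57.8, 48.4 and 56.97 CPM. DMSO mouse 3 was low and fell among the treated samples, so the groups overlapped. The fitted log2 fold change was -0.22 ± 0.07 (SE, edgeR adjusted p = 0.346). Under norepinephrine it was -0.13 ± 0.07 (SE, adjusted p = 0.713).

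Ndufa6, an accessory subunit of the LYR family, was closest to the threshold once mice were compared with themselves, and was named after its values were seen. Its DMSO samples measured 164, 173, 150.2 and 172 CPM, and its UK14304 samples 158, 146, 136, 145 and 147 CPM. UK14304 was lower in every mouse, and the groups overlapped through DMSO mouse 3 and UK14304-treated mouse 1. The blocked log2 fold change was -0.17 ± 0.05 (SE, edgeR adjusted p = 0.0883). DESeq2 with the block gave -0.16 at an adjusted p of 0.0499, against 1.78% of all genes called, and Ndufa6 was the 1 member it called.

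The complex I assembly factor Ndufaf4 (chr4:24898083-24905001, plus strand) leaned the other way. It measured 40.1, 36.2, 40.3 and 41.8 CPM in HCl and 47.5, 44.4, 49.6, 35.9 and 51.3 CPM with norepinephrine. Norepinephrine-treated mouse 4 was the lowest of all 9 samples and the others lay above all vehicle samples. The log2 fold change was 0.21 ± 0.09 (SE, edgeR adjusted p = 0.713). Under UK14304 the values were 43.6, 44.5, 45.2, 55.4 and 45.1 CPM against 40.8, 39.1, 41.6 and 38.8 CPM, without overlap, with a log2 fold change of 0.22 ± 0.09 (SE, edgeR adjusted p = 0.398).

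Groups did not overlap for 0 members under norepinephrine, against 1.42% of all genes, and for 4 under UK14304, against 3.51% of all genes. The 4 were Ndufaf4, Cox7c and Atp5l, all higher, and Ndufs5, lower, of which Ndufs5 and Cox7c were named after their values were seen. Ndufs5, an accessory subunit, measured 5.38, 5.27, 6.56 and 6.57 CPM in DMSO and 5.23, 5.20, 4.87, 4.14 and 4.62 CPM with UK14304. Its log2 fold change was -0.30 ± 0.12 (SE, edgeR adjusted p = 0.395). Cox7c, a small subunit of complex IV, had a log2 fold change of 0.18 ± 0.09 (SE, edgeR adjusted p = 0.452). Of these 4, Ndufs5, Cox7c and Atp5l share 41.18%, 52.95% and 84.85% of their main mRNA's stretches with other genes, and Ndufaf4 shares 0%.

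Sdhc, a membrane anchor of complex II, had the lowest unadjusted p of that complex under both agonists. Its log2 fold change was -0.09 ± 0.06 under norepinephrine (SE, edgeR adjusted p = 0.725) and -0.11 ± 0.06 under UK14304 (SE, adjusted p = 0.498). Sdhd, the other anchor, gave -0.03 ± 0.04 and 0.01 ± 0.04. Sdhaf1, which helps to insert iron-sulphur clusters into complex II, gave -0.17 ± 0.09 and 0.03 ± 0.09, and 69.6% of its exon length overlaps an antisense gene that unstranded counting cannot separate.

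In complex III, the small subunit Uqcr11 (chr10:80402997-80406830, minus strand) measured 68.9, 67.1, 61.2 and 65.8 CPM in HCl and 56.97, 52.0, 55.4, 71.3 and 51.3 CPM with norepinephrine. The samples of all mice but mouse 4 lay below the vehicle samples, and mouse 4 was the highest of the 9. The estimate on the log2 scale was -0.20 ± 0.09 (SE, edgeR adjusted p = 0.713). Under UK14304 it was -0.18 ± 0.09 (SE, edgeR adjusted p = 0.445). Uqcrh, the hinge protein, gave -0.04 ± 0.05 and -0.08 ± 0.05.

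In complex IV, Cox8a, one of its smallest subunits (chr19:7215153-7217616, minus strand), measured 169.7, 165, 147 and 156 CPM in HCl and 138, 134, 125, 175 and 120.4 CPM with norepinephrine. Again the sample of mouse 4 exceeded every vehicle sample while the other 4 lay below all of them. The fitted log2 fold change was -0.20 ± 0.09 (SE, edgeR adjusted p = 0.713). Cox4i1 (chr8:120668222-120674207, plus strand) had the lowest unadjusted p of the complex under UK14304. It measured 579, 599, 528 and 594 CPM in DMSO and 569, 528, 515, 510.4 and 516 CPM with UK14304. DMSO mouse 3 and UK14304-treated mouse 1 brought the groups to overlap. The log2 fold change was -0.12 ± 0.05 (SE, edgeR adjusted p = 0.408). Cox7a1, which differed most between mice, gave -0.21 ± 0.15 under UK14304, or -0.18 ± 0.06 once the mouse was a block (SE, edgeR adjusted p = 0.574 and 0.166).

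In complex V, Atp5l, subunit g of the membrane part (chr9:44912557-44920742, minus strand), had the lowest unadjusted p under both agonists. It measured 5.07, 5.85, 4.04 and 4.88 CPM in HCl and 6.29, 7.07, 7.37, 4.46 and 6.24 CPM with norepinephrine. Mouse 4 was again the treated sample inside the vehicle range. The estimate on the log2 scale was 0.34 ± 0.15 (SE, edgeR adjusted p = 0.713). Under UK14304 the values were 5.92, 6.14, 7.19, 8.04 and 8.60 CPM against 5.84, 4.90, 5.78 and 5.01 CPM in DMSO, with no overlap. That log2 fold change was 0.41 ± 0.14 (SE, edgeR adjusted p = 0.373). As given above, most of its mRNA sequence is shared with other genes. The abundant core subunits Atp5a1 and Atp5b gave -0.03 ± 0.04 and -0.06 ± 0.05 under norepinephrine and -0.02 ± 0.04 and -0.06 ± 0.05 under UK14304.

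**Figure D4:**
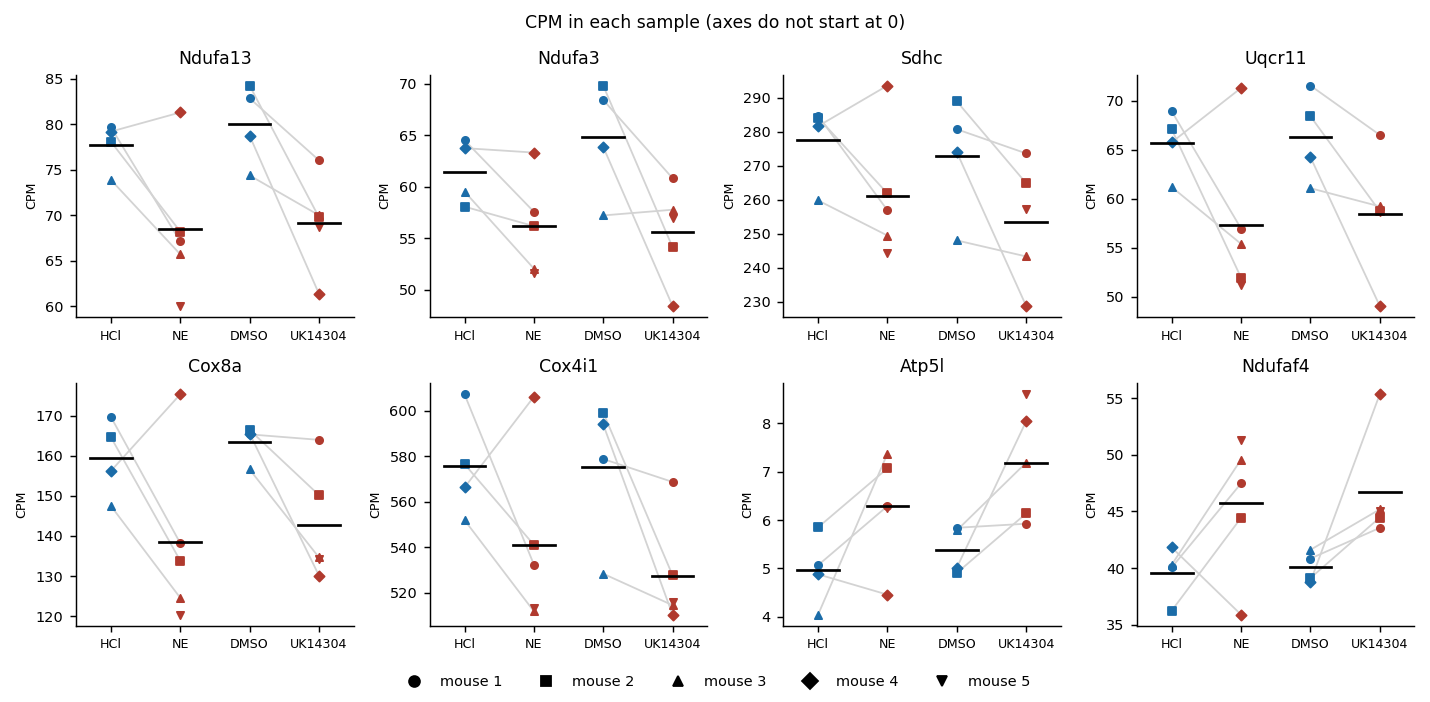
CPM of 8 members in each sample, with marker shapes for the mouse, black bars for group means and grey lines joining the same mouse in vehicle and agonist. Axes do not start at 0. With norepinephrine, mouse 4 (diamond) lies apart from the other 4 for Ndufa13, Uqcr11, Cox8a and Ndufaf4.

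The 2 agonists were also compared with each other, as the difference between their log2 fold changes at the matched dose and time. edgeR called 0 members, against 0% of all genes, and 0 members had an unadjusted p under 0.05, against 1.51% of all genes. With the block both counts were 0 as well. The 95% confidence interval of the difference lay within ±0.5 for 89 of the 92 members and within ±0.25 for 53, so larger differences were outside the interval for most. For Ndufa13 the difference, UK14304 minus norepinephrine, was -0.03 ± 0.10 (SE), and for Ndufaf4 0.01 ± 0.12. The HCl and DMSO vehicles differed in 0 members by edgeR, against 0% of all genes, and in 1 at an unadjusted p under 0.05 (1.27% of all genes), Ndufa12, which was named after its value was seen.

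The size of a member's change went with the GC content of its transcript. Across the 92 members, which share the same libraries, Spearman's rho between GC content and log2 fold change was -0.62 under norepinephrine and -0.60 under UK14304, and across all 15229 genes with a value it was -0.50 and -0.44. The members in the lowest part of the GC range (31 genes, 36.96% to 47.96% GC) had medians of 0.02 and -0.03. The 30 in the middle part had medians of -0.06 and -0.08, and the 31 in the highest part (52.43% to 63.35% GC) had medians of -0.09 and -0.14. Ndufaf4 and Atp5l, at 39.48% and 39.79% GC, lie at one end and Ndufa13 and Cox8a, at 60.43% and 58.54% GC, near the other. For merged exon length the sign was the opposite, with rho of 0.33 and 0.38 over the members and 0.17 and 0.21 over all genes. Genes with shorter merged exons thus had the lower values.

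**Figure D5:**
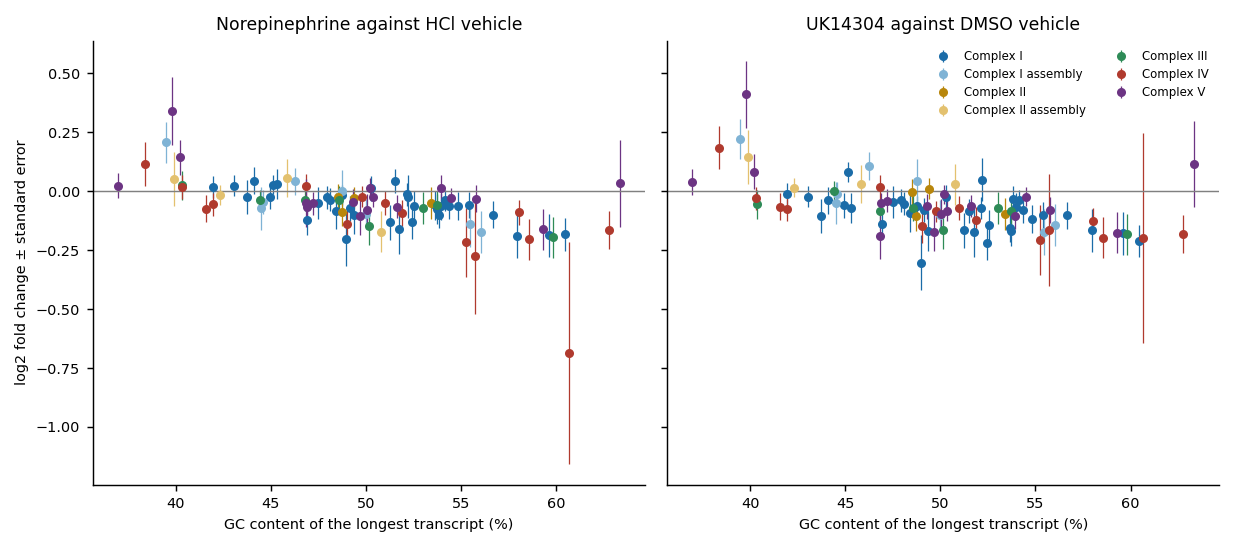
log2 fold change ± SE of each member against the GC content of its longest transcript, with norepinephrine on the left and UK14304 on the right. Points fall from left to right in both panels, with medians of 0.02 and -0.03 in the lowest part of the GC range and -0.09 and -0.14 in the highest.

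The slope of a sample's log2 levels on GC content also differed between libraries. It was between 0.0435 and 0.0732 log2 units per 10 points of GC in the HCl samples, between -0.146 and -0.0699 in norepinephrine-treated mice 1, 2, 3 and 5, and 0.195 in norepinephrine-treated mouse 4. In the DMSO samples it lay between -0.0384 and 0.121 and in the UK14304 samples between -0.222 and 0.0605. With the GC trend removed from each library, the members' medians were -0.05 and -0.07, and 73 and 77 of the 92 lay below 0. For single members the removal moved many values. Under norepinephrine Ndufa13 then stood at -0.08, Uqcr11 at -0.10, Cox8a at -0.12, Atp5b at -0.03, Ndufaf4 at 0.09 and Atp5l at 0.23. Under UK14304 Ndufa13 stood at -0.12, Uqcr11 at -0.10, Cox8a at -0.12, Cox4i1 at -0.05, Atp5b at -0.03, Cox7c at 0.07, Ndufaf4 at 0.11 and Atp5l at 0.30. Atp5a1 turned to 0.03 under both. edgeR then called 0 members without the block under either agonist. With the block it called 0 under norepinephrine and 2 under UK14304, against 4.11% of all genes, both lower. These were Ndufa6 (-0.12 ± 0.03 SE, adjusted p = 0.0314) and Ndufa3 (-0.17 ± 0.05 SE, adjusted p = 0.037).

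Calls among the members depended on mouse 4, and mostly on its norepinephrine library. When all samples of mouse 4 were left out and the other mice were compared with themselves, edgeR called 24 members under norepinephrine, 26.1% of them against 15.1% of all genes. Of these, 23 fell and 1, Ndufaf4, rose. Cox8a fell by 0.27 ± 0.04 on the log2 scale (SE, edgeR adjusted p = 1.105e-05) and Ndufaf4 rose by 0.29 ± 0.05 (SE, edgeR adjusted p = 0.0002028). Under UK14304 the same comparison called 3 members, against 3.83% of all genes, namely Ndufa6, Ndufa13 and Cox8a, all lower. Leaving out only the norepinephrine library of mouse 4 gave 22 members under norepinephrine (23.9% against 16.7% of all genes) and 13 under UK14304 (14.1% against 8.08% of all genes). The UK14304 and DMSO samples were the same in that fit, and all 4 groups shared 1 estimate of spread. Ndufa6 under UK14304 then gave -0.16 ± 0.03 (SE), close to its blocked estimate with all samples but with a smaller SE. The number called is thus no measure of the size of the UK14304 effect. Without mouse 4 and with the GC trend removed, a combination chosen after seeing the data, 10 members were called under norepinephrine, 10.9% against 3.24% of all genes. All 10 fell, and, named after their values were seen, they were Cox7b, Cox8a, Cox5a and Cox5b of complex IV, Ndufb8, Ndufv3 and Ndufa2 of complex I, and Atp5f1, Uqcrq and Sdhc. Cox7b, with 41.96% GC, fell by 0.19 ± 0.03 (SE, edgeR adjusted p = 0.001402). Under UK14304 the same combination called 2 members, against 4.67% of all genes, Ndufa6 and Ndufa3. The part of library GC slope in these calls was not tested further.

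Of 20 regulators of mitochondrial biogenesis, 9 lay below 0 under norepinephrine and 6 under UK14304, with medians of 0.0046 and 0.03, and edgeR called 0. Esrra, the estrogen-related receptor that drives many genes of respiration, had the lowest unadjusted p under both agonists and was lower in 4 of 4 mice under each, at -0.14 ± 0.07 and -0.17 ± 0.07 (SE, edgeR adjusted p = 0.713 and 0.398). Gabpa, whose motif is described above, gave 0.07 ± 0.06 and 0.14 ± 0.06 (adjusted p = 0.772 and 0.435) and was higher in 4 of 4 mice under UK14304. A further 3 are given for their known roles. Tfam, the packaging factor of mitochondrial DNA, gave 0.04 ± 0.05 and 0.10 ± 0.05 (adjusted p = 0.826 and 0.441), Ppargc1a -0.01 ± 0.08 and -0.09 ± 0.08, and Nrf1 -0.06 ± 0.05 and 0.03 ± 0.05. Of 36 further assembly factors tested, 22 and 24 lay below 0 and 0 were called. With the block 1 was called under UK14304, the copper chaperone Cox17, with a log2 fold change of -0.40 (edgeR adjusted p = 0.0447). The 13 enzymes of the tricarboxylic acid cycle had medians of -0.01 and -0.02, and 77 mitochondrial ribosomal proteins medians of -0.02 and -0.03, with 0 called in either list.

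Markers of the epithelial cell types were set beside the members, and edgeR called 0 of them without the block under either agonist. All 5 Paneth cell markers lay below 0 under both agonists, with medians of -0.30 and -0.28, and 2 and 3 of them were called with the block. The 4 enterocyte markers had medians of -0.10 and -0.16, and their summed level ranged from 7059 to 10427 CPM in HCl, 7045 to 9962 CPM with norepinephrine, 6748 to 10666 CPM in DMSO and 6005 to 9024 CPM with UK14304. The 4 goblet cell markers had medians of -0.17 and -0.16, and their Agr2, a disulphide isomerase of mucin folding, was called under UK14304 with the block (-0.16, edgeR adjusted p = 0.0324). The 6 stem cell markers had medians of 0.02 and -0.01, with 3 below 0 and 3 above 0 under each agonist. Of those above 0 under UK14304, Slc12a2 and Olfm4 gave 0.19 ± 0.08 and 0.17 ± 0.17 (SE, edgeR adjusted p = 0.398 and 0.718). Each was higher in 4 of 4 mice, as were 14% of all genes. The 5 enteroendocrine markers had medians of 0.0066 and -0.09, with 1 and 4 below 0. The 2 tuft cell markers tested had medians of 0.10 and 0.18, with 0 below 0 under either agonist. The part of these cell types in the members' values was not tested.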

How the data were processed

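Libraries had been made from polyadenylated RNA (KAPA mRNA HyperPrep) of samples with an RNA integrity number over 8. The submitters' processing notes name FastQC 0.11.8, STAR 2.7.3, SAMtools 1.9 and Subread 1.6.4 with GRCm38, and per the file headers featureCounts 2.0.1 counted reads against Ensembl release 102 with no option set for strand or multi-mapping reads, so that strand was ignored and such reads were left out. The values used are the counts deposited by the authors, raw and per gene, for 18 samples. Here they were tested in R 4.3.3 with edgeR 4.0.16 (TMM scaling, glmQLFit, genes kept by edgeR's filterByExpr with the groups given, all 4 groups in one fit). DESeq2 1.42.0 was an alternative. The minimum of 10 counts in at least 9 samples chose the members, and as a filter of the genes tested it was an alternative only. RPKM used the merged exon length in the file, and GC content the longest GENCODE transcript.

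The numbers in the sample names were taken to pair samples, on the basis of deviations from group means over all genes tested. These correlated in 8 of 8 pairs of agonist and own vehicle with the same number (0.119 to 0.52). They averaged -0.0716 over 96 pairs with different numbers, of which the highest was 0.248. All 25 pairs with the same number ranged from -0.212, between the 2 agonist samples of mouse 4, to 0.52. Over the members alone, the 8 pairs ranged from -0.338 (mouse 4, UK14304 and DMSO) to 0.621 (mouse 2, norepinephrine and HCl). The pairing is therefore less certain for the members. Nothing states separate animals beyond these names, so p-values cover the spread between these samples. Genes described singly were the 3 highest by RPKM of each complex (2 of complex II), the isoform pairs, the lowest unadjusted p of each complex and comparison, the 2 lowest of the assembly factors, and members past the threshold with or without the block. Others were named after their values were seen. The members and gene lists were chosen with earlier results of these data known. Alternatives changed the filter, the samples fitted, the block, the tool, a GC or length trend, the threshold and each library left out. Scripts were tested on simulated data. Of the members and markers, 1 each is not reported here by name.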

Additional observations from a re-analysis of the deposited data

Results flagged for a closer look

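In groups of 4 or 5 samples, 1 sample stood far from the rest (Dixon's criterion at 95%) in 18 of 140 groups examined, a criterion that chance meets in about 1 of 20 groups, and genes of one library are not independent. In the DMSO vehicle the sample of mouse 3 was low for Atp5b (2226 CPM, others from 2493 CPM), Cox6b1 (282 CPM), Cox7a2 (156 CPM), Cox7b (219.7 CPM), Cox8a (157 CPM), Uqcr10 (124 CPM) and Uqcrh (237 CPM). Its summed level over the 92 members was 14723 CPM, with the others from 16250 to 16332 CPM, and its mean log2 CPM of the members was 6.04. DMSO mouse 1 was high for Cox7a2l, at 85.0 CPM.

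With norepinephrine, mouse 4 was high for Cox6a1 (264 CPM, others up to 217 CPM) and Uqcr11 (71.3 CPM), and its slope of log2 level on GC content was 0.1945 per 10 points where the other 4 lay between -0.1455 and -0.0699. With UK14304, mouse 1 was high for Cox6b1 (315 CPM) and Ndufa1 (47.4 CPM), and mouse 4 for Ndufaf4 (55.4 CPM). In the HCl vehicle, mouse 3 was low for Sdhc (259.8 CPM) and mouse 1 high for Uqcr10 (137 CPM).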

How the results depend on the processing

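Under every alternative run, the median log2 fold change of the members stayed below 0 for both agonists. Members called under UK14304 numbered 1 with DESeq2 and the replicate block, 1 with the replicate block and only the own vehicle, 2 with the GC trend removed and the block, 3 with the block and mouse 4 left out, and 2 with all of these last settings, a combination chosen after seeing the data. Under norepinephrine 24 were called with the block and mouse 4 left out, and 10 with the GC trend also removed. The median log2 fold change of members, UK14304 against DMSO vehicle, was -0.02337 with a length trend removed and -0.02037 with the block as well. All genes called under UK14304, 6 as tested, numbered 22 without the filter, 1 with only the own vehicle, 126 with both vehicles pooled, 46 with DESeq2, 20 with the GC trend removed, 21 at an adjusted p of 0.1 and 2 at 0.01. With the replicate block they numbered 186, and 525 with only the own vehicle, 272 with DESeq2, 626 with the GC and 199 with the length trend removed, 78 with a term for ribosomal RNA share over 1%, 585 without mouse 4, 174 without mouse 5 and 713 without mouse 4 and the GC trend. Under norepinephrine, 0 as tested, the blocked counts in that order were 16, 15, 34, 31, 15, 16, 2300, 16 and 495. With single libraries left out, members called were 0 to 0 for either agonist without the block, and 0 to 22 under norepinephrine and 0 to 13 under UK14304 with it, both highest without norepinephrine-treated mouse 4. All genes called ranged from 0 to 0 and 2 to 11 without the block and 10 to 2529 and 68 to 1225 with it. Medians ranged from -0.068 to -0.018 and -0.095 to -0.059 without the block, and -0.063 to -0.025 and -0.080 to -0.035 with it. For the genes with the lowest p of each class, 14 results of a gene and an agonist, 742 values over 53 settings held 20 that passed the threshold where the reported one did not, and 0 that changed direction. These genes were chosen by their p in the same libraries, so a kept direction was likely from the start and is no separate support. Other named genes were not followed through these settings, and Atp5a1 changed direction with the GC trend removed. The cause of these shifts was not tested. Low-count members and those with copies elsewhere are limited in depth, as Ndufa4l2, which missed the filter in the norepinephrine fit with only its own vehicle.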
